A study of Mus musculus with 9 samples.

Results

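The 37 genes described here encode chaperones of the endoplasmic reticulum (ER), components of ER-associated degradation (ERAD), and parts of the ATF6 and IRE1-XBP1 arms of the unfolded protein response (UPR). They were chosen as a list of symbols, and each was read from the probe set annotated with that single symbol, the brightest over the 9 arrays where a gene had several. All 37 were measured, of 19938 genes in all, and no filter on low values was applied. RNA came from mouse embryonic fibroblasts (MEFs) of 3 genotypes, with 3 Affymetrix Gene ST arrays of each, and the values are RMA expression levels on the log2 scale.

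The labels name the reference cells wild-type (WT), the second genotype a mutant of both ERO1alpha and ERO1beta (the double mutant, DM), and the third the same mutations joined with a PRDX4 KO (the triple mutant, TM). ERO1 oxidises protein disulfide isomerases in the ER, and PRDX4 is a peroxiredoxin of the ER that backs it up. All arrays are labelled as T antigen transformed fibroblasts on a C57B/L6 background, and the labels name no treatment. The methods assign primary or T antigen immortalized MEFs by figure and do not name the arrays. The array results stand in a supplementary figure that the paper relates to a main figure made with primary MEFs. Which of the 2 the arrays hold is therefore not settled. The methods of the study, by contrast, describe control MEFs that carry 1 mutant allele of Ero1α and 2 of Ero1β, with Prdx4 given as +/+. If the arrays labelled WT are those cells, the Ero1β mutation is shared by all 3 genotypes. The study's table of genotypes uses +/+ at Prdx4 for females and +/y for males. In DM MEFs both copies of Ero1α and of Ero1β are mutated, and TM MEFs carry in addition a mutation of Prdx4, an X-linked gene, on the only X chromosome of a male (m/y). The sources used here do not say how many embryos or lines stood behind a genotype, or whether the arrays of a genotype were grown apart. A p-value below therefore speaks of the scatter among arrays alone, and that scatter may be technical.

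Misfolded proteins in the ER lumen draw the chaperone BiP away from the stress sensors PERK, IRE1 and ATF6, which sit in the ER membrane. ATF6 moves to the Golgi and is cut there to release a transcription factor, while IRE1 splices Xbp1 mRNA so that it encodes the active factor XBP1s. ATF6 and XBP1s raise transcription of chaperones and of the ERAD machinery, which carries misfolded proteins back to the cytosol for destruction by the proteasome. Fibroblasts secrete collagen and other matrix proteins in bulk and so hold a sizeable ER. The question put to these genes is whether losing the ER thiol oxidases, without or with PRDX4, moves the mRNAs of this response.

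Of the 37 genes, 30 were called in no comparison of the genotypes. In TM MEFs 6 genes rose against WT, namely Dnajb9, Herpud1, Derl3, Atf6, Wfs1 and Fkbp14, and none fell. In DM MEFs Fkbp14 rose and Hspa13 fell. Against DM MEFs, TM MEFs had higher Dnajb9, Herpud1 and Derl3 and no gene called lower. A gene was called where limma gave a Benjamini-Hochberg adjusted p under 0.05, taken over all 19938 genes, and the change was over 1.5-fold. "Rose" and "fell" are used below only of such calls.

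Of all genes tested, 10.9% were called in DM against WT (5.28% higher and 5.67% lower), and 2 of the 37, or 5.41%, were. In TM against WT 9.15% of all genes were called (5.59% higher and 3.56% lower), beside 6 of the 37, or 16.2%. In TM against DM 8.29% were called (4.68% higher and 3.61% lower), beside 3 of the 37, or 8.11%. The median log2 difference of the 37 genes was -0.005 in DM against WT, 0.046 in TM against WT and 0.095 in TM against DM, and that of all genes was 0.025, -0.029 and -0.046 in the same order. Whether the DM median lies above or below 0 depends on the scaling of the arrays, as it was -0.077 after median centring, 0.060 after quantile normalization and 0.080 after cyclic loess. The TM median turned from 0.046 to -0.005 after median centring and stayed above 0 with the others, at 0.085 and 0.105. With the sign left aside, the median difference of the 37 genes was larger than that of all genes. It was 0.195 in DM against WT, 0.195 in TM against WT and 0.154 in TM against DM, beside 0.138, 0.114 and 0.134 for all genes. All genes include dim ones, whereas of the 37 only Derl3 had a genotype mean below the array medians of 7.62 to 7.72. The part of brightness in these differences and shares was not tested.

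**Figure D1:**
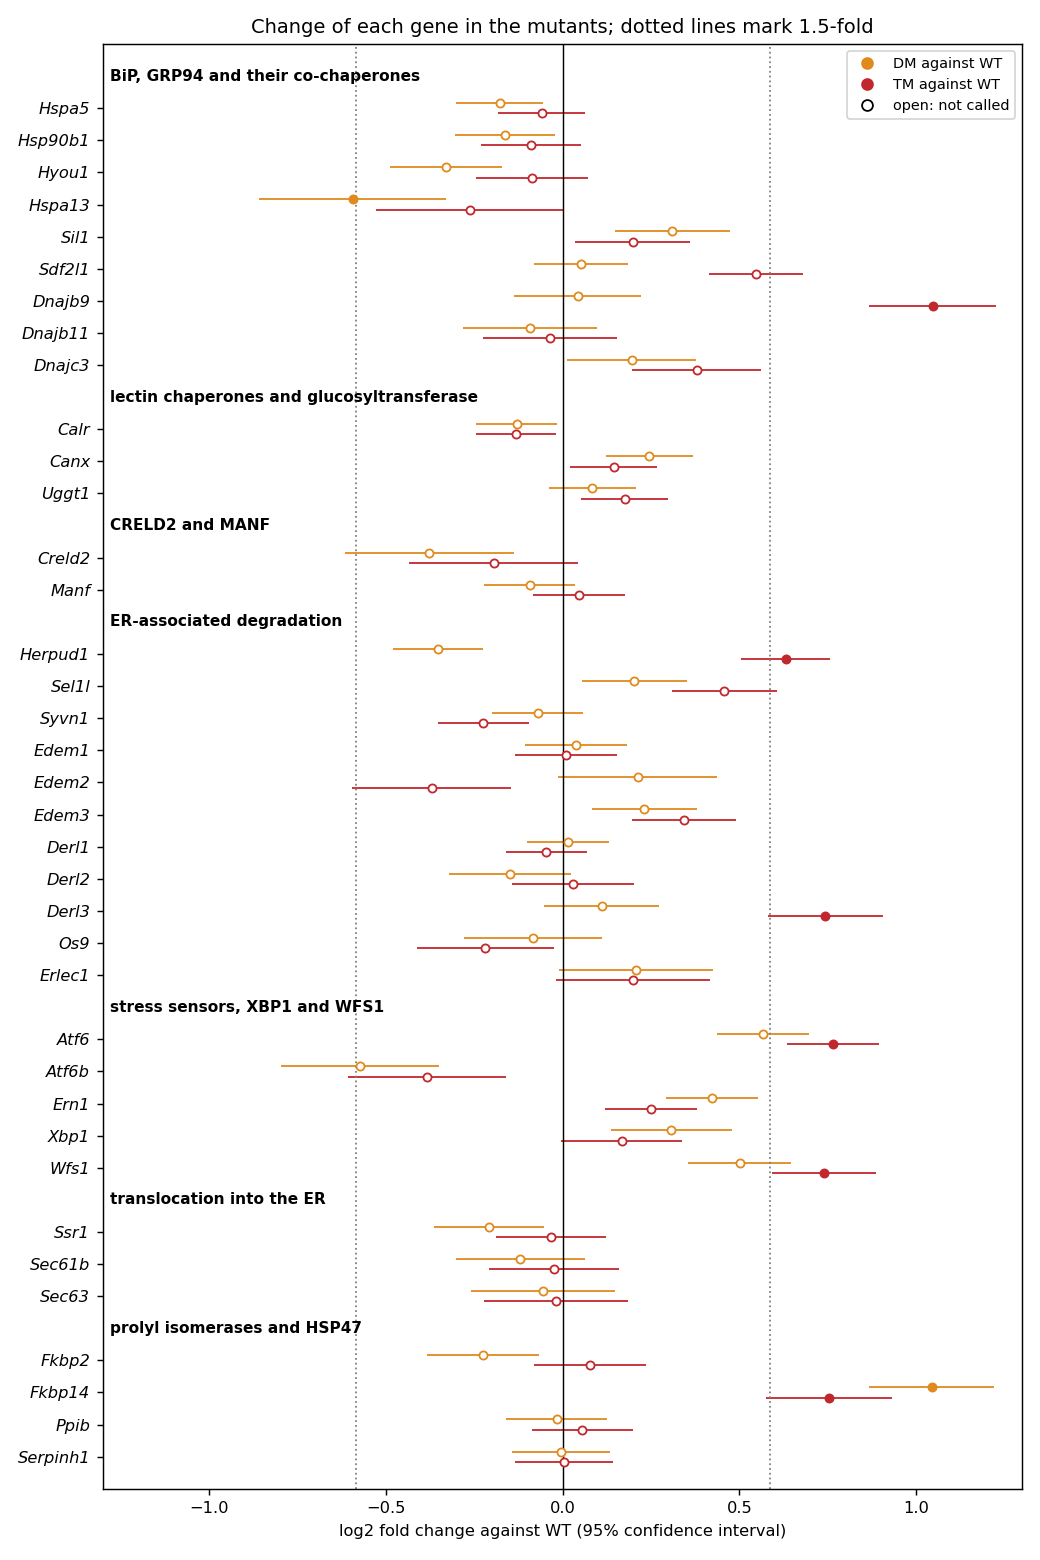
The log2 difference (x axis) of each of the 37 genes (y axis, grouped by role) in DM (orange) and TM (red) MEFs against WT, with 95% confidence intervals from limma over 3 arrays of each genotype. Filled points were called, and the dotted lines mark 1.5-fold. Most intervals lie between the dotted lines, while 6 TM points and 1 DM point (Fkbp14) are filled on the right and 1 DM point (Hspa13) on the left.

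Where only the adjusted p was required, with no limit on the fold, DM MEFs had 9 of the 37 genes above WT and 8 below, while 36.8% of all genes passed (17% higher and 19.8% lower). The counts were 12 higher and 3 lower in TM against WT, while 31.8% of all genes passed (13.8% higher and 18% lower). They were 9 higher and 3 lower in TM against DM, while 31.8% of all genes passed (15.4% higher and 16.5% lower). The arrays of the 2 genotypes did not overlap in 54.1% of the 37 genes in DM against WT, where 46.4% of all genes did not. The share was 56.8% in TM against WT (43.4% of all genes) and 56.8% in TM against DM (40.1% of all genes). Only Herpud1 passed the adjusted p as lower in DM and as higher in TM MEFs. The 7 genes Sel1l, Edem3, Atf6, Atf6b, Ern1, Wfs1 and Fkbp14 passed it with the same sign in both mutants. The 13 genes Hsp90b1, Dnajb11, Calr, Manf, Edem1, Derl1, Derl2, Os9, Erlec1, Sec61b, Sec63, Ppib and Serpinh1 passed it in none of the 3 comparisons.

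The genotypes also differed in genes outside this list. Ero1a mRNA fell by 2.40 in DM and by 2.80 in TM MEFs on the log2 scale, Prdx4 mRNA fell by 4.26 in TM MEFs, and Ero1b was called in neither. Ero1b had means of 7.65 in WT and 7.70 in DM MEFs, near the array medians of 7.62 to 7.72. The paper states that ERO1β protein cannot be detected in MEFs, so the lack of a call says little about its mutation. Whether the probes lie in the disrupted part of each gene was not examined. Xist, transcribed from an inactive X chromosome, had mean log2 levels of 5.70 in WT, 12.56 in DM and 5.72 in TM MEFs, and the Y-linked Eif2s3y, Uty and Kdm5d were all called lower in DM and not in TM MEFs. By these genes the WT arrays read like the TM arrays, of m/y cells. They do not read like female cells, although the methods give the control as +/+ at Prdx4. Of 14 fibroblast markers, 2 were called higher (Pdgfrb and Dcn) and 4 lower (Col1a2, Pdgfra, S100a4 and Twist2) in DM MEFs. In TM MEFs 5 were called higher (Pdgfrb, Thy1, Dcn, Fap and Prrx1) and 1 lower (S100a4). Vim, among those not called, had mean levels of 14.18, 14.16 and 14.15 in WT, DM and TM MEFs. The summed linear signals of the 14 markers were 54743 to 57314 in WT, 58580 to 59166 in DM and 67707 to 68657 in TM arrays. Of 15 epithelial and mesothelial markers, 8 were called higher and 1 lower (Msln) in DM MEFs, and 0 higher and 2 lower (Krt19 and Msln) in TM MEFs, with summed signals of 5932 to 6208, 18390 to 20062 and 2462 to 2654. Of 9 smooth muscle and pericyte markers, 0 were called higher and 2 lower (Tagln and Actg2) in DM MEFs, and 4 higher and 0 lower in TM MEFs, with summed signals of 18168 to 19323, 17282 to 18944 and 33554 to 34616. Lists for macrophages and leukocytes (10 measured), endothelium (9) and skeletal muscle (8) had 0 calls in either mutant. Their part in the results was not tested, and in such bulk samples fewer cells of a type and less RNA per cell cannot be told apart.

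Promoter sequences are shown for 5 genes, because the ER stress response element (ERSE) and its variant ERSE-II are the letters through which ATF6 and XBP1s are known to act. Both were searched on either strand in the RefSeq windows of GRCm38.p6, from 250 bases before to 50 after the transcript start, ERSE as CCAAT and CCACG with 9 letters between them and ERSE-II as ATTGG and CCACG with 1 letter between them. Derl3 and Herpud1 are the called genes with a match, and Hspa5, Hsp90b1 and Calr are chaperone genes with a match and no call. Capitals mark the fixed letters of the motif, and each stretch is read along the strand of its gene, in which the ERSE of Derl3 and of Calr runs in reverse.
Derl3 (chr10:75893227-75893275, plus strand): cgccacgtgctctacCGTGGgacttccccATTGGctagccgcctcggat
Herpud1 (chr8:94386362-94386402, plus strand): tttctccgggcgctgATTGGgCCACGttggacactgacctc
Hspa5 (chr2:34772010-34772058, plus strand): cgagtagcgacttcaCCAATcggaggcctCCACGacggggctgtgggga
Hsp90b1 (chr10:86705623-86705671, minus strand): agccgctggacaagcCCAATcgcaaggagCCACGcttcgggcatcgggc
Calr (chr8:84847060-84847108, minus strand): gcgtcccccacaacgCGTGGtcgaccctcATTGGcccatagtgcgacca
Counted from the transcript start, the first base of the motif lies at -156 in Derl3, -52 in Herpud1, -65 in Hspa5, -212 in Hsp90b1 and -162 in Calr, all upstream of the annotated start.

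A promoter window was given for 30 of the 37 genes. An ERSE lay in 8 of the 30 (26.7%), namely Hspa5, Hsp90b1, Dnajc3, Calr, Canx, Creld2, Syvn1 and Derl3, against 0.137% of the 27025 genes with a window, and Hsp90b1 held 2. ERSE-II lay in Herpud1 and Dnajb11 (6.67%, against 0.0444% of genes), in Dnajb11 just past the start. The XBP1 element TGACGTGG, which contains the first letters of the cAMP response element, lay in 0 of the 30 (against 0.714% of genes). ERSE and ERSE-II share the CCACG letters and a CCAAT box, which ERSE-II holds in reverse. Of the 10 genes with any of the 3 motifs, 2 rose in TM MEFs (Derl3 and Herpud1) and 0 in DM MEFs, with median log2 differences of -0.048 and -0.111. Of the 20 with a window and no match, 3 rose in TM MEFs (Dnajb9, Wfs1 and Fkbp14) and 1 in DM MEFs (Fkbp14), with medians of 0.067 and 0.040. Of all genes tested, 5.59% rose in TM and 5.28% in DM MEFs, and groups this small do not allow the 2 to be compared. These matches are letters in a window and not measured binding sites. The genes given no window are Hyou1, Hspa13, Sil1, Manf, Derl1, Erlec1 and Atf6.

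The first role is that of BiP, GRP94 and the co-chaperones that serve BiP, 9 genes in all. Hspa5 encodes BiP, the Hsp70 of the ER lumen and the usual readout of the UPR. Its log2 levels were 13.24, 13.22 and 13.12 in the WT arrays, 13.03, 12.96 and 13.05 in the DM arrays and 13.15, 13.13 and 13.12 in the TM arrays. All DM arrays lay below all WT arrays, and the TM arrays lay within the range of WT. The log2 difference from WT was -0.18 in DM MEFs (95% confidence interval -0.30 to -0.055, adjusted p = 0.0262 from limma), under the fold limit, and -0.06 in TM MEFs (-0.18 to 0.064, adjusted p = 0.509 from limma).

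Hsp90b1 encodes GRP94, the Hsp90 of the ER. It stood at 12.97, 12.92 and 12.99 in WT, 12.79, 12.68 and 12.91 in DM and 12.88, 12.84 and 12.88 in TM arrays. Every array of either mutant lay below the lowest WT array. The differences of -0.16 in DM (-0.31 to -0.023) and -0.09 in TM (-0.23 to 0.052) did not pass, with adjusted p = 0.0676 and 0.361 from limma. For both major chaperones the TM interval excludes a rise of 1.5-fold.

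Dnajb9 had the largest rise of the 37 genes in TM MEFs. It encodes ERdj4, a J-domain partner of BiP and a known target of XBP1s. Its levels were 9.44, 9.40 and 9.47 in WT, 9.45, 9.31 and 9.68 in DM and 10.48, 10.43 and 10.54 in TM arrays. The TM arrays lay far above the others, which overlapped with each other. Dnajb9 rose 2.07-fold in TM against WT (log2 difference 1.05 ± 0.082, standard error, adjusted p = 6.34e-07 from limma). The difference between DM and WT was 0.04 (adjusted p = 0.734 from limma). Against DM MEFs it rose 2.01-fold (1.00, 0.82 to 1.18).

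Sdf2l1, which encodes a partner of the ER J-domain proteins, came close to the fold limit in TM MEFs. Its arrays read 10.98 to 11.01 in WT, 11.04, 10.97 and 11.13 in DM and 11.60, 11.55 and 11.48 in TM MEFs. Again the TM arrays stood apart and those of DM overlapped with WT. The TM difference from WT was 0.55, or 1.46-fold (adjusted p = 1.5e-05 from limma), and passed the fold limit with quantile normalization (0.60) and cyclic loess (0.61). Dnajc3, the co-chaperone p58IPK, was higher by 0.38 in TM MEFs (adjusted p = 0.00352 from limma) and by 0.20 in DM MEFs (adjusted p = 0.0899 from limma). The J-domain gene Dnajb11, which encodes ERdj3, was between 9.82 and 10.14 on every array and passed in no comparison.

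Hspa13 encodes a relative of Hsp70 in the lumen of the ER. It read 10.88, 11.04 and 10.97 in WT and 10.48, 10.01 and 10.62 in DM arrays, and 10.70 on each of the 3 TM arrays. The DM arrays lay below those of WT but spread widely, with the second DM array lowest by far. Hspa13 fell by 0.59 in DM MEFs (standard error 0.12, adjusted p = 0.00184 from limma), just past the fold limit. Without the second DM array the difference was -0.41 and without the second WT array -0.56, and the call was lost in both cases. It was also lost with quantile normalization (-0.52), cyclic loess (-0.51) and array weights (-0.56). The TM difference was -0.26 (adjusted p = 0.131 from limma), and 3 identical values in 1 genotype understate the spread of this gene.

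The nucleotide exchange factors of BiP moved apart in DM MEFs. Hyou1, which encodes GRP170, was lower than WT by 0.33 (adjusted p = 0.00314 from limma) and Sil1 higher by 0.31 (adjusted p = 0.00539 from limma), both under the fold limit. In TM MEFs Hyou1 differed by -0.09 (adjusted p = 0.449 from limma) and Sil1 missed the threshold (adjusted p = 0.0625 from limma). Over the 9 genes of this role the median difference was -0.092 in DM and -0.037 in TM MEFs against WT. It was 0.184 in TM against DM MEFs, where 8 of 9 were above 0, beside 7829 of all 19938 genes.

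The lectin chaperones calreticulin and calnexin hold glycoproteins during folding, and UGGT1 sends unfolded ones back to them. Calr read 13.22, 13.25 and 13.20 in WT, 13.10, 13.06 and 13.12 in DM and 13.12, 13.06 and 13.09 in TM arrays. All mutant arrays lay below all WT arrays by a small step. The difference of -0.13 in both mutants missed the threshold (adjusted p = 0.0702 in DM and 0.0732 in TM from limma), and the intervals ran from -0.24 to -0.017 in DM and from -0.25 to -0.020 in TM MEFs. Canx was higher than WT by 0.24 in DM MEFs (adjusted p = 0.00421 from limma) and by 0.14 in TM MEFs (adjusted p = 0.0726 from limma). Uggt1 was higher by 0.18 in TM MEFs (adjusted p = 0.0313 from limma). None of the 3 was called in any comparison.

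Creld2 and Manf encode small ER proteins that are among the classic genes raised by ER stress. Creld2 was lower by 0.38 in DM MEFs (adjusted p = 0.0166 from limma), and its WT arrays ranged from 11.64 to 12.11. Without the second WT array, the highest of them, the difference was -0.23. It differed by -0.19 in TM MEFs (adjusted p = 0.223 from limma). Manf read between 10.17 and 10.40 on all arrays and passed nowhere. Neither gene was called.

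Of the 11 ERAD genes, 2 rose in TM MEFs (18.2%, beside 5.59% of all genes) and 0 in DM MEFs (beside 5.28% of all genes). Herpud1 encodes HERP, a membrane protein of the HRD1 ubiquitin ligase complex. Its levels were 10.71, 10.77 and 10.76 in WT, 10.42, 10.38 and 10.38 in DM and 11.45, 11.39 and 11.29 in TM arrays. The arrays of the 3 genotypes fell into 3 separate bands, with DM lowest and TM highest. Herpud1 rose 1.55-fold in TM against WT (log2 difference 0.63 ± 0.058, standard error, adjusted p = 2.78e-06 from limma), but with median centring the value was 0.58 and the call was lost. In DM MEFs it was lower by 0.35 (-0.48 to -0.23, adjusted p = 0.000364 from limma), under the fold limit. The step from DM to TM was 1.98-fold (0.98, 0.86 to 1.11, adjusted p = 4.78e-08 from limma).

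Derl3 encodes derlin-3, of the family of membrane proteins that handle ERAD substrates. It read 7.43, 7.42 and 7.24 in WT, 7.41, 7.58 and 7.42 in DM and 8.18, 8.01 and 8.12 in TM arrays. TM arrays lay above the rest, and WT and DM arrays overlapped, at or below the array medians of 7.62 to 7.72. Derl3 rose 1.67-fold in TM against WT (0.74 ± 0.074, standard error, adjusted p = 5.89e-06 from limma) and 1.55-fold against DM (0.63, 0.47 to 0.79). Its paralogs did not share this rise, as Derl1 ranged only from 11.36 to 11.49 over all arrays and Derl2 from 9.49 to 9.88, and neither passed in any comparison. A test of the difference between paralogs was not made.

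Sel1l and Syvn1 encode the adaptor and the ligase of the HRD1 complex and went opposite ways in TM MEFs. Sel1l was higher than WT by 0.46 (adjusted p = 0.000191 from limma) and Syvn1 lower by 0.22 (adjusted p = 0.0106 from limma). In DM MEFs Sel1l was higher by 0.20 (adjusted p = 0.0341 from limma) and Syvn1 differed by -0.07 (adjusted p = 0.392 from limma).

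The EDEM proteins trim mannose from glycoproteins marked for degradation. Edem3 was higher in both mutants, by 0.23 in DM and 0.34 in TM MEFs (adjusted p = 0.0172 and 0.00163 from limma). Edem2 stood at 9.41, 9.41 and 9.50 in WT, 9.65, 9.43 and 9.87 in DM and 9.22, 9.06 and 8.92 in TM arrays. Its TM arrays were lowest, with no overlap with either other genotype. The TM difference was -0.37 from WT (adjusted p = 0.0145 from limma) and -0.58 from DM (adjusted p = 0.000788 from limma), and the latter, just under the fold limit, was called with quantile normalization (-0.60), without the second DM array (-0.69) and without the first TM array (-0.66). Edem1 and the lectins Os9 and Erlec1 passed in no comparison.

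The stress sensors, Xbp1 and Wfs1 formed a role of 5 genes, and in each of the 5 the arrays of either mutant did not overlap with those of WT, as was so for 46.4% of all genes in DM and 43.4% in TM MEFs. Atf6 encodes the sensor and factor ATF6α. It read 10.20, 10.28 and 10.19 in WT, 10.75, 10.80 and 10.82 in DM and 10.90, 11.00 and 11.06 in TM arrays. Both mutants lay well above WT, and TM above DM. Atf6 rose 1.70-fold in TM against WT (0.77 ± 0.060, standard error, adjusted p = 5.78e-07 from limma). The DM difference of 0.57, or 1.48-fold (adjusted p = 8.35e-06 from limma), lay just under the fold limit, and it passed with quantile normalization (0.63), cyclic loess (0.65), without the second WT array (0.59) and without the first DM array (0.59). The difference between TM and DM was 0.20 (adjusted p = 0.0232 from limma).

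Wfs1 encodes wolframin, an ER membrane protein induced by ER stress. Its arrays read 9.20, 9.36 and 9.42 in WT, 9.81, 9.82 and 9.85 in DM and 10.14, 10.06 and 10.00 in TM MEFs. The order of the bands was that of Atf6. Wfs1 rose 1.67-fold in TM against WT (0.74 ± 0.067, standard error, adjusted p = 2.44e-06 from limma) and was higher by 0.50, or 1.42-fold, in DM MEFs (adjusted p = 6.74e-05 from limma). TM exceeded DM by 0.24 (adjusted p = 0.0166 from limma).

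The paralog of Atf6 went the other way. Atf6b encodes ATF6β and read 10.38 to 10.58 in WT, 9.84 to 10.02 in DM and 9.89 to 10.34 in TM arrays. Both mutants lay below WT, and DM and TM overlapped. The difference was -0.57 in DM MEFs (1.49-fold lower, adjusted p = 0.000684 from limma) and -0.38 in TM MEFs (adjusted p = 0.0118 from limma). The DM value passed the fold limit with median centring (-0.64), without the first WT array (-0.64) and without the first DM array (-0.61).

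Ern1, which encodes IRE1α, stood at 9.73, 9.71 and 9.84 in WT, 10.19, 10.11 and 10.24 in DM and 10.02, 10.01 and 9.99 in TM arrays. DM was highest and TM intermediate, in 3 separate bands. It was higher than WT by 0.42 in DM and 0.25 in TM MEFs (adjusted p = 0.000107 and 0.00612 from limma), under the fold limit in both. Xbp1 read 11.41, 11.51 and 11.36 in WT, 11.81, 11.56 and 11.83 in DM and 11.66, 11.56 and 11.56 in TM arrays. All mutant arrays were above all WT arrays. The Xbp1 difference was 0.31 in DM (adjusted p = 0.00787 from limma) and 0.17 in TM MEFs (adjusted p = 0.139 from limma). One probe set for each gene sums spliced and unspliced Xbp1 mRNA here, so splicing was not measured.

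None of the 3 genes of translocation into the ER was called. Ssr1, a subunit of the translocon-associated complex, was lower by 0.21 in DM MEFs (adjusted p = 0.0371 from limma). Sec61b, of the channel itself, and Sec63, its J-domain partner, passed in no comparison. All probe sets of Sec61b, 3 in number, differed from WT by -0.120 to -0.054 in DM and by -0.025 to 0.034 in TM MEFs. Dnajc3 has a second probe set whose values are identical on all arrays.

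Prolyl isomerases speed the folding of proline-rich chains such as collagen, and HSP47 is the collagen chaperone. Fkbp14 encodes FKBP22, a collagen-binding isomerase, and was the only one of the 37 genes called in both mutants. Its levels were 8.70, 8.72 and 8.75 in WT, 9.77, 9.61 and 9.91 in DM and 9.55, 9.34 and 9.54 in TM arrays. The WT arrays were lowest by a wide gap, and all DM arrays lay above the TM arrays. Fkbp14 rose 2.06-fold in DM (1.04 ± 0.081, standard error, adjusted p = 5.28e-07 from limma) and 1.69-fold in TM MEFs (0.75 ± 0.081, adjusted p = 1.23e-05 from limma). TM was lower than DM by 0.29 (adjusted p = 0.0163 from limma).

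Other genes of this role differed less. Fkbp2 was lower by 0.22 in DM MEFs (adjusted p = 0.0283 from limma) and higher by 0.30 in TM against DM MEFs (adjusted p = 0.00662 from limma). Ppib, which encodes cyclophilin B, lay between 13.01 and 13.24 on all arrays. Serpinh1, which encodes HSP47, differed from WT by -0.005 in DM and 0.005 in TM MEFs (-0.13 to 0.14 in TM, adjusted p = 0.968 from limma).

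**Figure D2:**
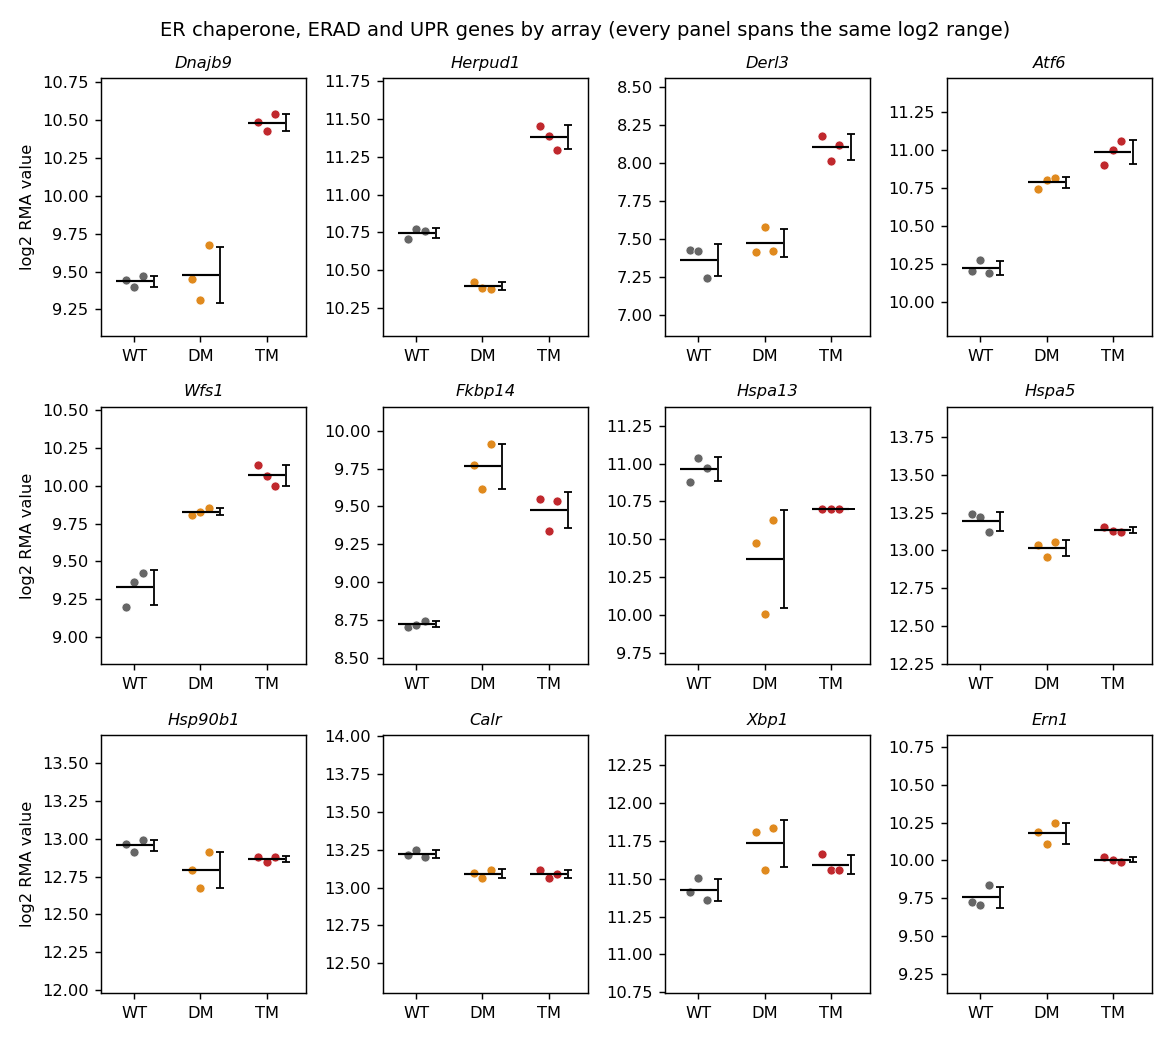
Log2 RMA level (y axis) of 12 genes on each array of the WT, DM and TM genotypes (x axis), with a line at the mean and a bar for the SD of 3 arrays. Every panel spans the same log2 range. TM arrays stand apart for Dnajb9, Herpud1 and Derl3, both mutants stand above WT for Atf6, Wfs1 and Fkbp14, and Hspa5, Hsp90b1 and Calr shift far less.

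The list was then read by arm. The ATF6-led targets were Hspa5, Hsp90b1, Calr, Hyou1, Sdf2l1, Manf, Creld2, Herpud1 and Sel1l, and the XBP1-led targets were Dnajb9, Dnajc3, Edem1, Sec61b, Ssr1, Sec63, Derl2, Derl3 and Hspa13, although many of these genes answer to both factors. Of the 9 ATF6-led genes, 0 were called in DM MEFs, with a median of -0.164 and 7 of 9 below 0, beside 8802 of all 19938 genes. In TM MEFs 1 rose (Herpud1), with a median of -0.059. Of the 9 XBP1-led genes, Hspa13 fell in DM MEFs (median -0.056) and Dnajb9 and Derl3 rose in TM MEFs (median 0.010). In TM against DM MEFs the medians were 0.182 and 0.179, with 8 of 9 genes above 0 in each arm, beside 7829 of all 19938 genes. The share called higher in TM MEFs was 11.1% of the ATF6-led and 22.2% of the XBP1-led genes, that is 1 and 2 of 9, beside 5.59% of all genes.

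Genes of the same compartment outside the 37 were counted from the same fit. The PERK and ATF4 arm, which raises amino acid supply and stress regulators, had 23 measured genes, of which 0 were called higher and 6 lower in DM against WT (median -0.326), 5 higher and 1 lower in TM against WT (0.374) and 13 higher and 0 lower in TM against DM (0.622). The share higher in TM against DM was 56.5% of the list, beside 4.68% of all genes. In TM against WT it was 21.7%, beside 5.59% of all genes. The share lower in DM against WT was 26.1%, beside 5.67% of all genes. In TM against DM, Slc7a11, the cystine transporter, was higher by 1.35 and Chac1, which degrades glutathione, by 1.28. In TM against WT, Sesn2, a stress-induced regulator of growth signalling, was higher by 0.95 and Ndrg1 differed by -1.36, and in DM against WT Psat1, of serine synthesis, differed by -0.99 and Ndrg1 by -1.34. Ddit3, which encodes CHOP, was higher by 0.56 in TM against WT, under the fold limit.

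ERAD genes outside the list, 23 measured, had 0 calls in all 3 comparisons, with medians of -0.053, 0.014 and 0.107 in DM against WT, TM against WT and TM against DM. The 17 measured genes of the PDI family, which form and rearrange disulfides, also had 0 calls, with medians of 0.029, 0.089 and 0.019. The 21 genes of the translocon, signal peptidase and SRP receptor had 0 calls in DM and 1 in TM MEFs, Spcs3 of the signal peptidase at 0.78, and in TM against DM Spcs3 was higher by 0.87 and Tram2 lower by 1.06. Of 21 genes of the oligosaccharyltransferase and glycan trimming, Man1a rose by 1.61 in DM and 1.57 in TM MEFs and Tmem258 fell by 0.62 in TM MEFs. With the fold limit kept, every count of 0 in 1 direction over the 37 genes, their roles, arms and motif groups, the other lists and the marker lists, 116 in all, was also 0 at an unadjusted p under 0.05 with limma and with the methods' t-test. This check leaves the fold limit in place and so says nothing of smaller changes. With no fold limit, 7 ERAD genes outside the list were higher and 3 lower in TM against WT. Of the PDI family, 4 were higher and 0 lower, and of all genes 13.8% were higher and 18% lower.

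Smaller lists held 1 or 2 calls in a comparison, or none. Of 4 further FKBP and cyclophilin genes, Fkbp11 fell by 0.81 in DM MEFs. Of 6 transcripts that IRE1 is known to cut, Pdgfrb rose by 1.18 in DM and 1.23 in TM MEFs, and Scara3 fell by 2.22 in DM MEFs and rose by 1.99 in TM against DM. Of 19 genes of COPII and cargo export, Creb3l1, a membrane-bound factor for collagen secretion, rose by 2.04 in DM and 1.24 in TM MEFs and fell by 0.80 in TM against DM, and its relative Creb3l2 rose by 0.98 in DM MEFs.

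**Figure D3:**
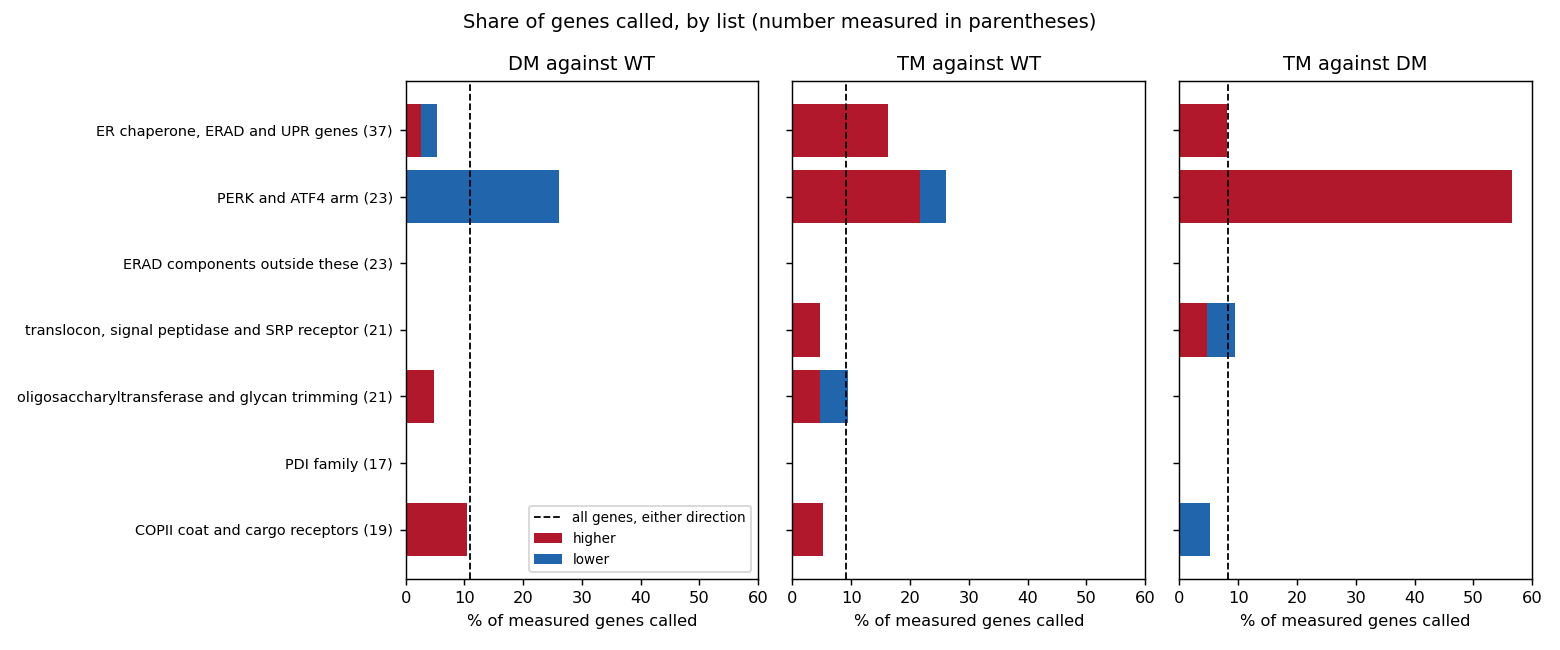
Share of the measured genes called (x axis, percent; red higher, blue lower) in the 37 genes and in 6 lists of the same compartment (y axis), for DM against WT, TM against WT and TM against DM, with dashed lines at the share of all genes (10.9%, 9.15% and 8.29%). The PERK and ATF4 list stands highest, at 56.5% in TM against DM, and the ERAD and PDI lists are at 0.

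Within a genotype the 37 genes did not scatter evenly over the arrays. The second DM array was the lowest of its genotype in 24 of 37 genes (64.9%, against 33.3% of all genes without ties), and the third DM array was the highest in 24 (64.9%, against 30.7% of all genes). The median deviation from the DM mean was -0.0571 on the second and 0.0468 on the third DM array. In TM MEFs the first array was highest in 19 of 34 genes without ties (55.9%, against 36.7%), and in WT the second in 20 of 36 (55.6%, against 41.9%). These shifts are small beside the differences of Dnajb9, Herpud1 and Derl3 between TM and WT MEFs, and their part in the smaller differences was not tested.

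**Figure D4:**
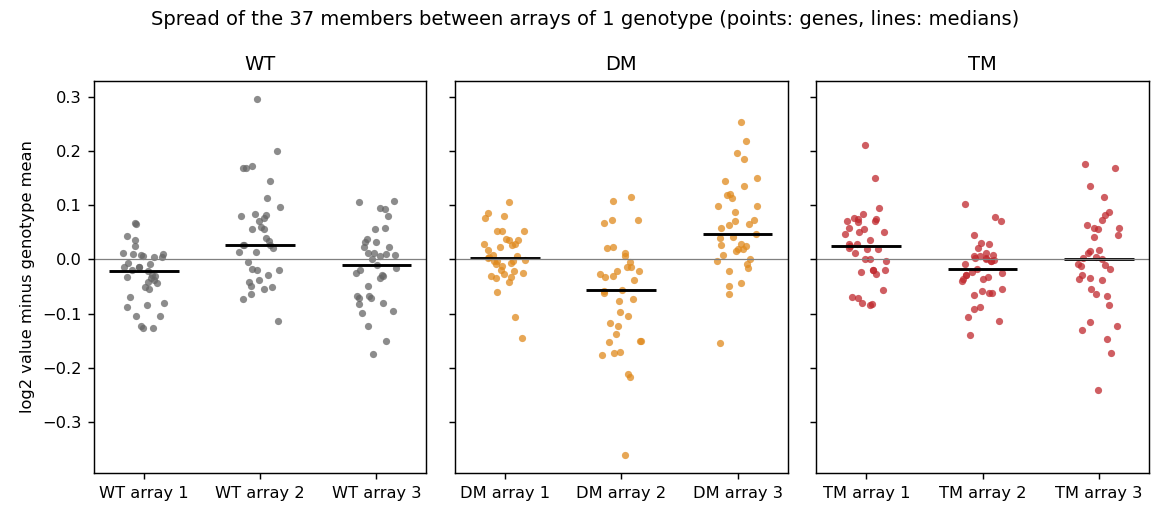
Each of the 37 genes as a point, showing its log2 level minus the mean of its genotype (y axis), by array (x axis), with a line at the median of the array. The points of the second DM array lie mostly below 0 (median -0.0571) and those of the third mostly above (median 0.0468).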

How the data were processed

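RNA levels were read in MEFs of 3 genotypes, on 3 arrays each. By the study's methods, RNA was hybridised to Affymetrix Gene ST arrays and the image files were processed in GeneSpring GX with RMA and with PLIER. The values the authors deposited are log2 RMA levels, 1 per probe set and array, for which the labels name RMA with no version. RMA scales the arrays to each other, which reduces differences in total signal between them. Array medians were 7.62 to 7.72, and the number of arrays limits the precision. No source used here gives the build of the probes.

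Of 35556 probe sets, 21789 have 1 symbol, 1621 have several and 12146 are not listed in the platform annotation. Only the first kind was used. Identifiers were matched to RefSeq GRCm38.p6 for 21698 probe sets, with 0 symbols changed, and the brightest probe set over the 9 arrays was kept for 999 genes with several, leaving 19938 genes. Triplicates hold 1 identical value in 369 genes for WT, 185 for DM and 226 for TM MEFs.

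All 9 arrays were fitted together by lmFit and eBayes of limma 3.58.1 (R 4.3.3, 6 residual degrees of freedom), with Benjamini-Hochberg adjustment over all genes. Intervals are at 95%. The fit was tested on simulated data. The 37 genes, the arms, the other lists and the marker lists were chosen with earlier results of these data known, so neither the list nor its counts is independent support. Array values are printed for each called gene, for Hspa5, Hsp90b1, Xbp1, Atf6, Ern1 and Calr, and, chosen after their values were seen, for Sdf2l1 and Edem2. For other lists the called genes with the largest changes are named, up to 2 a comparison. Ddit3, Krt19, Msln, Tagln and Actg2 lie outside that rule and were named after their values were seen. Marker lists of cartilage and bone (1 higher and 1 lower in DM, 0 in TM), adipocytes (2 higher in each mutant) and neurons and glia (1 lower in DM, 1 higher in TM) were also counted. Alternatives were other scalings, thresholds, tests, variance models, probe set rules, a filter on dim genes, the replicate number as a block and leaving out each array.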

Additional observations from a re-analysis of the deposited data

Results flagged for a closer look

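For 3 of the 37 genes the effect in TM MEFs differed from that in DM MEFs by a limma test of the difference between the mutants, past both limits of a call. Both effects are taken against the same WT arrays, so their difference is the TM to DM comparison. Dnajb9 differed by 1.00 on the log2 scale (adjusted p = 1.08e-06 from limma), with an effect of 0.04 in DM and 1.05 in TM MEFs. Herpud1 differed by 0.98 (adjusted p = 4.78e-08 from limma), with effects of -0.35 and 0.63. Derl3 differed by 0.63 (adjusted p = 2.76e-05 from limma), with effects of 0.11 and 0.74. In all 3 genes each TM array lay above each DM array, and the difference stayed over 1.5-fold without any 1 array, at 0.92 to 1.10 for Dnajb9, 0.94 to 1.02 for Herpud1 and 0.59 to 0.69 for Derl3. The 3 genes were picked by this difference on the same arrays, so neither observation is further support for it. Of all genes, 40.1% had no overlap between the TM and DM arrays. The high Xist level was measured on the DM arrays, where the Y-linked Eif2s3y, Uty and Kdm5d were called lower than in either other genotype. The summed epithelial and mesothelial signal was 18390 to 20062 on the DM arrays, against 5932 to 6208 in WT and 2462 to 2654 in TM arrays. The part of these in the 3 differences was not tested.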

How the results depend on the processing

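For the 7 genes with calls, 262 values were recomputed under 24 alternatives, of which 9 left out an array, and 247 kept their call, 15 lost it and 0 changed direction. Some alternatives, such as dropping the fold limit or leaving out an array of the genotype not compared, leave the log2 difference itself unchanged. The 247 is therefore not a count of independent checks. With no limit on the fold, the calls among the 37 genes were 9 higher and 8 lower in DM, 12 and 3 in TM, and 9 and 3 in TM against DM. At over 2-fold, 0 fell in DM MEFs, 1 rose in TM MEFs and 1 rose in TM against DM. The main split in DM of 1 higher and 1 lower became 2 and 0 with quantile normalization and with cyclic loess, and 1 and 2 with median centring. The genes that fell in DM MEFs were 0 with array weights and with the methods' t-test after adjustment. Quantile normalization gave 1 gene lower in TM against DM. Leaving out 1 array in turn gave 1 to 2 higher and 0 to 2 lower in DM, 6 higher and 0 lower in TM, and 3 higher and 0 to 1 lower in TM against DM. The replicate numbers did not pair the arrays (correlations of same-numbered deviations of -0.239 to 0.168), and with them as a replicate block the counts stayed at 1 and 1, 6 and 0, and 3 and 0. The cause of the changed calls was not tested. Derl3 lies below the filter on dim genes and has no value there. With the fold limit kept, the 0 genes called lower in TM against WT and in TM against DM by limma were also 0 at an unadjusted p under 0.05 and with the methods' t-test.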
